A study of Rattus norvegicus with 6 samples.

Results

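The genes described here encode 5 ligands of the epidermal growth factor (EGF) receptor family and 3 of its receptors, measured in rat kidney. The ligands are Hbegf, Areg, Ereg, Tgfa and Btc, and the receptors are Egfr, Erbb2 and Erbb3. Every array probe that is not a control and whose accession belongs to 1 of these 8 genes was taken, which gave 16 probes of 61453 analysed and 8 of the 15645 genes that could be named. The samples were total RNA of renal cortex from Sprague-Dawley rats, all male and bought at 5 weeks of age, of which 3 received 75 mg/kg/day of 1,2-dibromoethane and 3 received corn oil, over 4 weeks in both cases. The compound is a halogenated solvent and former soil fumigant, corn oil is its vehicle, and each animal gave 1 single-colour Agilent array. The comparison asks which of these transcripts differed between treated and vehicle animals.

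The ligands are made as membrane proteins that face the outside of the cell, and proteases such as ADAM17 cut the growth factor free. A ligand brings receptors together in pairs, the kinase domains phosphorylate each other, and the signal runs through RAS, RAF, MEK and ERK and through PI3 kinase and AKT. ERBB2 binds no known ligand and works as a partner of the other receptors, while ERBB3 has a weak kinase and receives neuregulins. In kidney, EGF is made mainly in the thick ascending limb and distal convoluted tubule, EGFR is present along the tubule, and HB-EGF, TGF-alpha and amphiregulin are known for their part in tubular injury and repair.

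Both Hbegf and Areg are shown by the sequence in front of the gene, Hbegf as the gene whose probes both separated the groups, and Areg as the ligand with the widest spread among vehicle animals. The arrays did not measure these stretches. RefSeq promoter entries were at hand for 6 of the 8 genes, and the 250 bases before each gene's start are given 5′ to 3′ on the minus strand in build GRCr8, at chr18:28390221-28390470 for Hbegf and chr14:17265642-17265891 for Areg. Capitals mark the motifs searched on both strands, which were TGANTCA for AP-1, TGACGTCA for the cyclic AMP response element, GGGCGG for the Sp1 box and TATAAA for the TATA box, and in these stretches no match overlapped another.
Hbegf: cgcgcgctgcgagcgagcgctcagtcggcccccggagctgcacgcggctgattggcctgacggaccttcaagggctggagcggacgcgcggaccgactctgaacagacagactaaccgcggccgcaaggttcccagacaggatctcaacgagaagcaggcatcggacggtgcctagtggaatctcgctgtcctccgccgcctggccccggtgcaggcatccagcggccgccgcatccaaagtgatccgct
Areg: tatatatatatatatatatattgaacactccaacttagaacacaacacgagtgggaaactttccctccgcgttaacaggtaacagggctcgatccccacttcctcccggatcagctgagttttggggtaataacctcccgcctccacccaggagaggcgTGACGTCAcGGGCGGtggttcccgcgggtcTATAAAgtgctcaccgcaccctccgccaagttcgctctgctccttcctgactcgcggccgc
The Areg stretch held the cyclic AMP response element 91 to 84 bases before the start, the Sp1 box at 82 to 77 and the TATA box at 61 to 56. The Hbegf stretch held none of the 4 motifs. Of 33469 promoters of the same length, 6.34% held the AP-1 letters, 1.59% the cyclic AMP response element, 30.5% the Sp1 box and 12.9% the TATA box. The Sp1 box was also present in front of Tgfa, Btc, Egfr and Erbb2. A match is a description of letters and not a binding site.

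Levels are given as log2 of the processed signal minus the 75th percentile of the array, so that 0 is the level of a probe at that percentile. The share of probes that the scanner software marked as well above background ran from 59.2% to 67.8% per array, both ends in dibromoethane animals, and 0 spots were saturated. The arrays lay on 3 slides, and this share was 59.2% to 62.0% on slide 1 and 65.7% to 67.8% on slides 2 and 3. Testing in limma was limited to probes with that mark in all 3 animals of either group, 37274 in number. Of these, 10 passed an adjusted p of 0.05, 8 higher and 2 lower in treated rats, or 8 and 4 after quantile normalization. Of the 16 ligand and receptor probes, 13 were tested, covering 7 of the 8 genes, and 12 were well above background on all 6 arrays. Precision rests on the small number of arrays, since 3 animals against 3 cannot give an exact permutation p below 0.1.

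In limma 0 of the 13 tested ligand and receptor probes passed an adjusted p of 0.05, against 0.0268% of all probes tested (0.0215% higher and 0.00537% lower in treated rats). The 2 probes under an unadjusted p of 0.05 were both probes of Hbegf, where 11.3% of all probes were under it. The groups did not overlap for 3 of the 13, all higher in treated rats, against 7.59% of all probes on the higher side and 19.4% on either side. Differences were positive for 8 and negative for 5, with a median log2 fold change of 0.11, against -0.01 over all probes tested. Since 1 probe of Btc entered through the vehicle arrays alone, these counts cover the probes that passed the filter and not all 16.

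**Figure D1:**
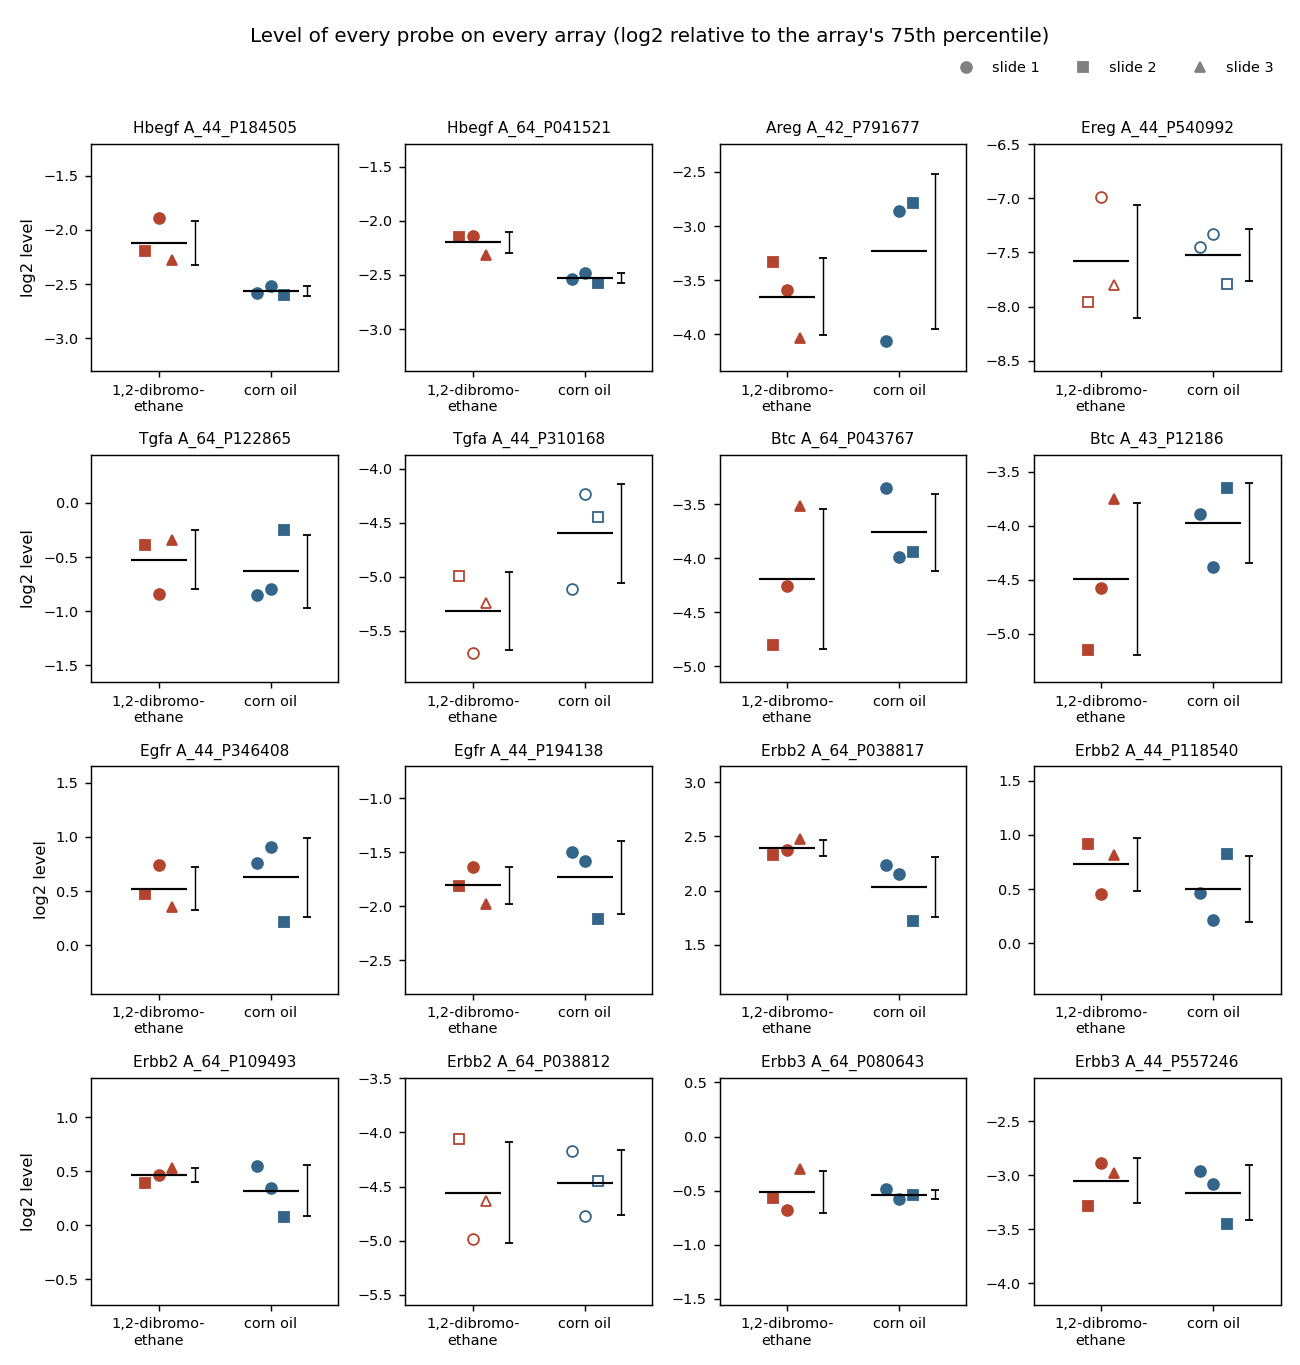
Level of each of the 16 probes on each array, as log2 relative to the array's 75th percentile, with 1,2-dibromoethane rats left of corn oil rats in every panel and each panel spanning the same range. Horizontal lines are means, bars beside them are ± 1 SD (n = 3), the marker shape gives the slide, and open markers show probes that were not tested. Both Hbegf probes lie higher on every treated array than on any vehicle array, while Tgfa A_64_P122865, both Egfr probes and Erbb2 A_44_P118540 group by slide.

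Hbegf encodes heparin-binding EGF-like growth factor, which binds EGFR and ERBB4. Its probe A_44_P184505 had log2 levels of -2.19, -1.89 and -2.27 in dibromoethane rats, against -2.58, -2.51 and -2.60 in corn oil rats. The probe A_64_P041521 stood at -2.15, -2.14 and -2.31 in dibromoethane rats, against -2.54, -2.48 and -2.57 in corn oil rats. All 3 treated animals lay above all 3 vehicle animals on both probes, and the vehicle animals lay close together. The first probe averaged -2.12 ± 0.20 in dibromoethane rats and -2.57 ± 0.05 in corn oil rats (SD, n = 3 each), a 1.36-fold difference with a log2 fold change of 0.45 (SE 0.11, 95% interval 0.17 to 0.73, limma adjusted p = 0.340). The second averaged -2.20 ± 0.10 in dibromoethane rats and -2.53 ± 0.05 in corn oil rats (SD, n = 3 each), 1.26-fold, with a log2 fold change of 0.33 (SE 0.08, 95% interval 0.14 to 0.53, limma adjusted p = 0.327). Neither passed, and both gave an exact two-sided permutation p of 0.1, the smallest that the design allows. The 2 probes target the same transcript and followed each other over the 6 arrays (r = 0.94), so they are not independent measurements of the animals.

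The Hbegf difference had the same direction within each slide that held both groups. A_44_P184505 differed by 0.66 within slide 1 and by 0.41 within slide 2, and A_64_P041521 by 0.37 and 0.43. Normexp background correction gave 0.24 for A_44_P184505, which moved its value by more than 1.5 times, and 0.30 for A_64_P041521. Without dibromoethane replicate 2, the array with the highest level of A_44_P184505, the log2 fold changes were 0.33 and 0.30.

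The levels of other groups of transcripts also differed between the same animals, none of them past the test, and their part in the Hbegf difference was not tested. In bulk cortex, fewer cells of a type and less RNA per cell cannot be told apart. Macrophages also make HB-EGF, and the summed level of 7 tested macrophage markers of 8 was 14.1 to 16.4 times the array's 75th percentile in dibromoethane rats and 18.8 to 21.2 times in corn oil rats. Within that list the complement genes C1qa, C1qb and C1qc had log2 fold changes of -0.54, -0.48 and -0.41, without overlap of the groups. Of all probes tested, 11.8% lay lower without overlap. C1qb and C1qa were the brightest of the list and weigh most in its sum, so the sum and these genes are not separate observations. The other 4 tested markers overlapped, with 0.17 for Cd14, 0.05 for Csf1r, -0.03 for Cd68 and -0.14 for Adgre1, and Cd163 stayed near background in all 6 animals. Transcripts abundant in liver were positive for 10 of 10 markers, with a summed level of 20.2 to 48.3 in dibromoethane rats and 12.5 to 18.1 in corn oil rats. The groups did not overlap for 3 of the 10, all higher in treated rats, against 7.59% of all probes tested. The sum of 48.3 was that of dibromoethane replicate 1, where the other treated animals had 25.8 and 20.2. Among markers of tubular injury, 6 of 9 tested were positive, against 46.4% of all genes at 1 probe per gene. The summed levels of 34.4 to 45.7 in dibromoethane rats and 31.6 to 40.3 in corn oil rats overlapped. Positive were Clu at 0.63 (SE 0.37), Spp1 at 0.48 (SE 0.25), Vim and Lcn2 at 0.17, Timp1 at 0.14 and Krt18 at 0.03. Of these only Timp1 lay higher without overlap, against 7.59% of all probes tested. Negative were Krt19 at -1.34 (SE 0.76), Cd44 at -0.38 (SE 0.15) and Vcam1 at -0.20 (SE 0.12), each with overlap of the groups. Havcr1, which encodes kidney injury molecule 1, stood at log2 levels of -5.10, -2.69 and -5.53 in dibromoethane rats, against -5.59, -4.63 and -5.00 in corn oil rats, so its 1 high animal was dibromoethane replicate 2.

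**Figure D2:**
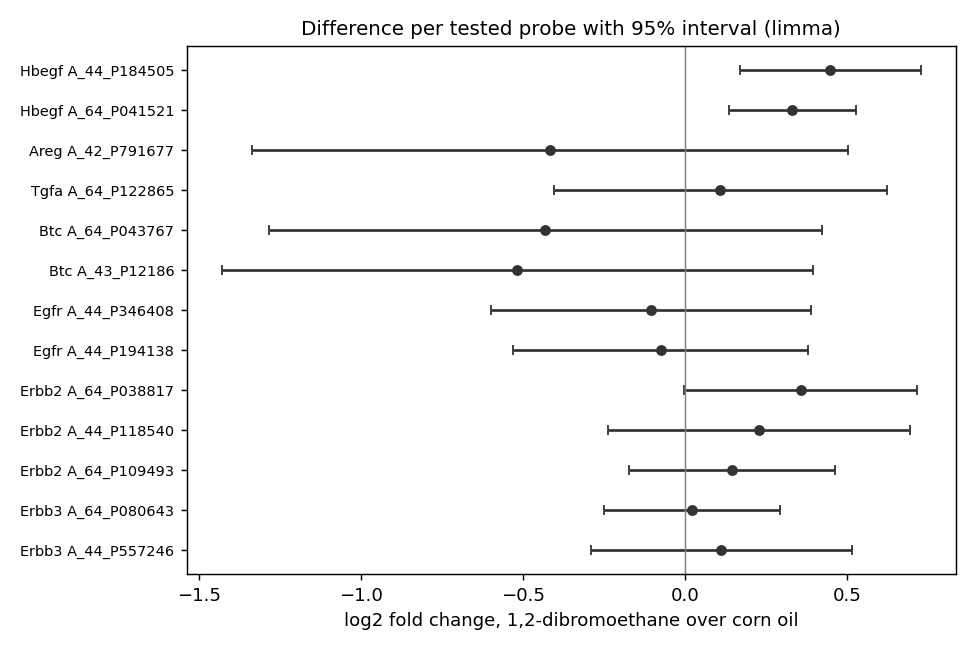
Log2 fold change, 1,2-dibromoethane over corn oil, for each of the 13 tested probes, with bars for the 95% interval of the limma fit (3 arrays per group). The intervals of the 2 Hbegf probes, 0.17 to 0.73 and 0.14 to 0.53, lie above 0, and those of the other 11 probes include 0.

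Areg encodes amphiregulin, a ligand of EGFR. Its 1 probe had log2 levels of -3.33, -3.59 and -4.03 in dibromoethane rats, against -4.06, -2.86 and -2.79 in corn oil rats. The lowest animal of all 6 was a vehicle animal, control replicate 1, and the groups overlapped. The mean was -3.65 ± 0.35 in dibromoethane rats and -3.23 ± 0.71 in corn oil rats (SD, n = 3 each), and the difference of -0.42 (SE 0.38, 95% interval -1.34 to 0.50, limma adjusted p = 0.696) was smaller than the spread among vehicle animals. It was -0.83 without control replicate 1 and -0.13 within slide 1.

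Ereg encodes epiregulin, a ligand of EGFR and ERBB4. Its 1 probe was at background in all 6 animals, with log2 levels from -7.96 to -6.99 in dibromoethane rats and from -7.79 to -7.33 in corn oil rats. No difference was detectable at this signal, and these values have no order.

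Tgfa encodes transforming growth factor alpha, a ligand of EGFR. Its brighter probe, A_64_P122865, had log2 levels of -0.39, -0.84 and -0.34 in dibromoethane rats, against -0.86, -0.79 and -0.25 in corn oil rats. The 3 low values were the 3 arrays of slide 1, which held dibromoethane replicate 2 and control replicates 1 and 2, and the 3 high values were the arrays of slides 2 and 3. The groups differed by 0.11 (SE 0.21, 95% interval -0.41 to 0.62, limma adjusted p = 0.867), by -0.01 within slide 1 and by -0.14 within slide 2. The other probe, A_44_P310168, was well above background on 1 of 3 dibromoethane arrays and 2 of 3 corn oil arrays and was not tested. It stood at -5.00, -5.71 and -5.24 in dibromoethane rats, against -5.11, -4.24 and -4.45 in corn oil rats.

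Btc encodes betacellulin, which binds EGFR and ERBB4. The probe A_64_P043767 had log2 levels of -4.81, -4.26 and -3.52 in dibromoethane rats, against -3.35, -3.99 and -3.94 in corn oil rats. The treated animals spread more widely than the vehicle animals, with dibromoethane replicate 1 lowest of all. The mean was -4.19 ± 0.65 in dibromoethane rats and -3.76 ± 0.35 in corn oil rats (SD, n = 3 each), a difference of -0.43 (SE 0.35, 95% interval -1.28 to 0.42, limma adjusted p = 0.660). The probe A_43_P12186, not well above background in dibromoethane replicate 2, gave -5.15, -4.57 and -3.76 in dibromoethane rats, against -3.89, -4.38 and -3.65 in corn oil rats. Its difference of -0.52 (SE 0.37, limma adjusted p = 0.623) had the same sign, and the probes followed each other over the 6 arrays (r = 0.87). Neither difference exceeded the spread between animals. Without dibromoethane replicate 1 the differences of A_64_P043767 and A_43_P12186 were -0.12 and -0.19, and without dibromoethane replicate 3 they were -0.77 and -0.89. Without control replicate 1 that of A_64_P043767 was -0.23. They were -0.59 and -0.44 within slide 1 and -0.87 and -1.50 within slide 2. A fixed block for slide gave -0.71 and -0.89 (limma adjusted p = 0.410 and 0.420).

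Egfr encodes the EGF receptor itself, which binds all 5 of these ligands. The probe A_44_P346408 had log2 levels of 0.47, 0.74 and 0.35 in dibromoethane rats, against 0.76, 0.90 and 0.22 in corn oil rats. The probe A_44_P194138 stood at -1.81, -1.63 and -1.97 in dibromoethane rats, against -1.49, -1.58 and -2.12 in corn oil rats. On both probes the 3 arrays of slide 1 were the highest and control replicate 3 was the lowest, so the groups overlapped. The differences were -0.11 (SE 0.20, 95% interval -0.60 to 0.39, limma adjusted p = 0.863) and -0.08 (SE 0.19, 95% interval -0.53 to 0.38, limma adjusted p = 0.898), with r = 0.96 between the probes over the 6 arrays. Within slide 1 they were -0.10 and -0.10, and within slide 2 they were 0.26 and 0.31, so the sign of the Egfr difference depended on the slide.

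Erbb2 encodes the ligandless receptor and had 4 probes. Those tested all gave positive differences, but these varied in size and in their pattern over the arrays. The brightest, A_64_P038817, had log2 levels of 2.33, 2.37 and 2.47 in dibromoethane rats, against 2.24, 2.15 and 1.72 in corn oil rats. All treated animals lay above all vehicle animals, and control replicate 3 was the lowest array by a wide margin. The mean was 2.39 ± 0.08 in dibromoethane rats and 2.04 ± 0.28 in corn oil rats (SD, n = 3 each), a difference of 0.36 (SE 0.15, 95% interval -0.00 to 0.71, limma adjusted p = 0.446) that was 0.20 without control replicate 3. It was 0.18 within slide 1 and 0.61 within slide 2.

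The probe A_64_P109493 of Erbb2 stood at 0.40, 0.47 and 0.53 in dibromoethane rats, against 0.54, 0.35 and 0.07 in corn oil rats, a difference of 0.14 (SE 0.13, limma adjusted p = 0.697). It followed the brightest probe over the 6 arrays (r = 0.92) and again had its lowest value in control replicate 3. The difference was 0.020 without that animal and 0.25 without control replicate 1, and it was 0.022 within slide 1 and 0.32 within slide 2. The probe A_44_P118540 stood at 0.91, 0.45 and 0.82 in dibromoethane rats, against 0.46, 0.22 and 0.82 in corn oil rats, a difference of 0.23 (SE 0.19, limma adjusted p = 0.672). It followed the slides and not the other probes (r = -0.05 with the brightest), and its difference was 0.11 within slide 1 and 0.093 within slide 2. Leaving out dibromoethane replicate 1 gave 0.14 and leaving out dibromoethane replicate 2 gave 0.37, while omitting control replicate 2 gave 0.087 and omitting control replicate 3 gave 0.39. The dim probe A_64_P038812 was well above background on 2 of 3 arrays of each group and was not tested. It stood at -4.06, -4.98 and -4.64 in dibromoethane rats, against -4.17, -4.78 and -4.45 in corn oil rats.

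Erbb3 encodes a receptor of neuregulins. The probe A_64_P080643 had log2 levels of -0.57, -0.68 and -0.30 in dibromoethane rats, against -0.49, -0.58 and -0.54 in corn oil rats. The highest and the lowest animal were both treated, and the difference was 0.02 (SE 0.11, 95% interval -0.25 to 0.29, limma adjusted p = 0.958). The dimmer probe A_44_P557246 gave -3.29, -2.89 and -2.98 in dibromoethane rats, against -2.96, -3.08 and -3.45 in corn oil rats, a difference of 0.11 (SE 0.16, limma adjusted p = 0.821). The probes did not follow each other (r = 0.09 over the 6 arrays).

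**Figure D3:**
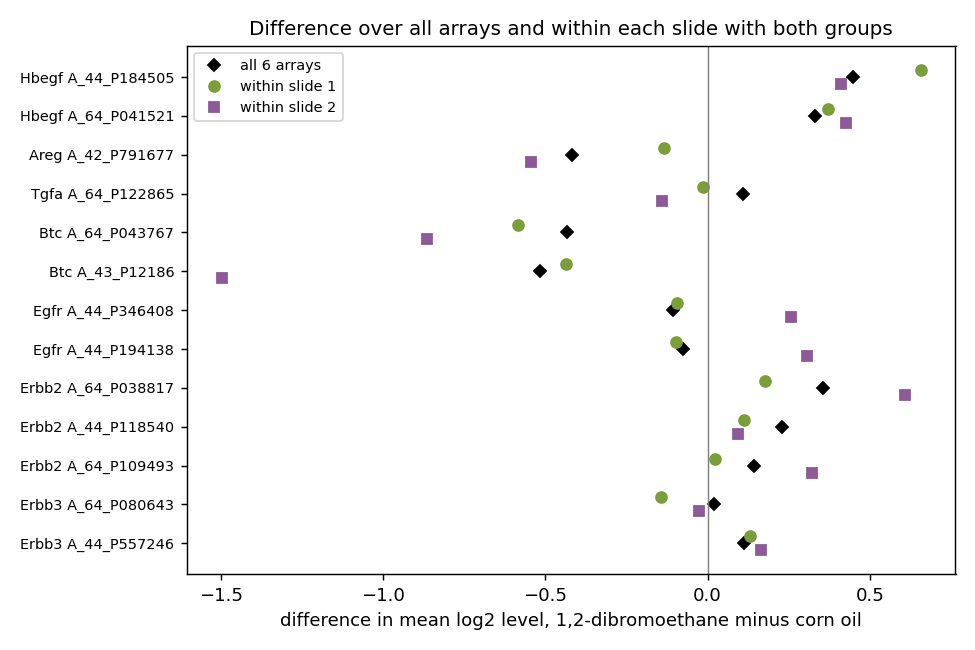
Difference in mean log2 level, 1,2-dibromoethane minus corn oil, for each tested probe over all 6 arrays (diamonds), within slide 1 (circles, 1 treated and 2 vehicle animals) and within slide 2 (squares, 1 animal of each group). Hbegf, Areg, Btc and Erbb2 keep their sign in both slides, while Egfr changes sign in slide 2 and Tgfa is negative within both slides.

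The slides separated levels of several of these probes. For 4 of the 13 tested probes, which were Tgfa A_64_P122865, both Egfr probes and Erbb2 A_44_P118540, the 3 arrays of slide 1 lay apart from the other 3, and this held for 22.1% of all probes tested. The shift between slide 1 and the other slides was -0.50 for Tgfa, 0.45 and 0.40 for the Egfr probes and -0.47 for that Erbb2 probe, each larger than the difference between treatments. For Hbegf it was 0.03 and -0.04. Slide 3 held dibromoethane replicate 3 alone, so its slide and treatment cannot be told apart.

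For each gene the named gene with the most similar levels over the 6 arrays, among 11429 compared by Pearson's r at the brightest probe, is given as a description. These were Hp1bp3 for Hbegf (r = 0.994), 9530082P21Rikl for Areg (0.985), Pnmt for Tgfa (0.998), Pef1 for Btc (0.993), Ghitm for Egfr (0.992), Grb7 for Erbb2 (0.997) and Cd34 for Erbb3 (0.995). With 6 arrays many genes reach such values: r exceeded 0.95 for 12 genes with Areg and for 112 with Tgfa, whose levels followed the slide. The level of Hp1bp3, a chromatin protein, was 2.61, 2.69 and 2.58 in dibromoethane rats and 2.52, 2.55 and 2.52 in corn oil rats, a smaller distance between the groups than for Hbegf.

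Grb7, an adaptor protein that can bind ERBB2, is also a neighbour of Erbb2 on chromosome 10 in the gene order of GRCr8. The genes beside Erbb2 were looked up after this value was seen. Grb7 A_64_P135843 had log2 levels of 2.83, 2.84 and 2.87 in dibromoethane rats, against 2.77, 2.74 and 2.58 in corn oil rats. Pgap3, the neighbour on the other side, which acts on GPI-anchored proteins, had levels of 1.79, 2.03 and 1.87 in dibromoethane rats, against 1.74, 1.73 and 1.23 in corn oil rats. As on Erbb2 A_64_P038817, but not on the other Erbb2 probes, all treated animals lay above all vehicle animals on both of these, with control replicate 3 lowest. Grb7 A_64_P135843 was picked for its likeness to that Erbb2 probe over the same arrays, so its order of arrays follows from the choice. Of all probes tested, 7.59% lay higher without overlap. The log2 fold changes were 0.15 (SE 0.08, limma adjusted p = 0.511) for Grb7 and 0.33 (SE 0.16, limma adjusted p = 0.492) for Pgap3, and neither passed. Over the 6 arrays Pgap3 followed Erbb2 A_64_P038817 at r = 0.94. Mien1, which lies between Erbb2 and Grb7, did not (r = -0.05, log2 fold change -0.02), nor did the other probe of Grb7, A_43_P12795 (r = 0.06).

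**Figure D4:**
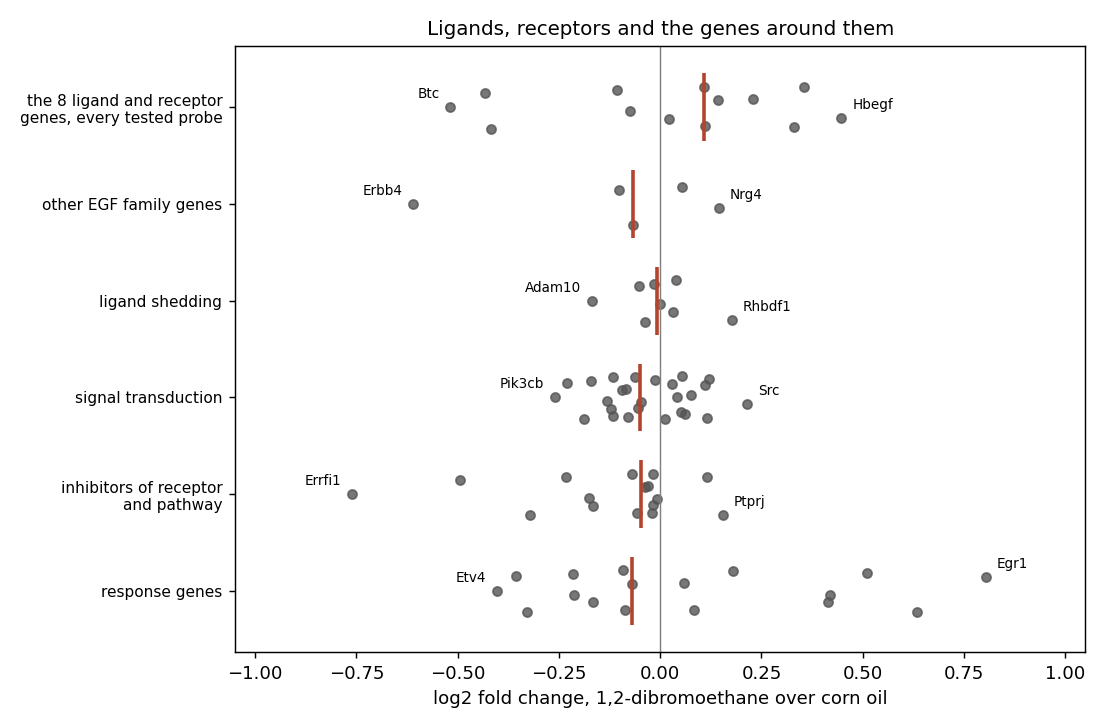
Log2 fold change, 1,2-dibromoethane over corn oil, of the 13 tested ligand and receptor probes (top) and of 72 genes around them in 5 lists, each gene by its brightest tested probe. Points are genes or probes, spread vertically for legibility, red lines are medians, and the lowest and highest gene of each row are named. The medians of the 5 lists lie between -0.07 and -0.01, and the response genes spread widest to the higher side, up to 0.80 for Egr1.

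Of 87 genes of the pathway in 5 lists, 77 were named on the array and 72 were tested, each by its brightest tested probe. In limma 0 of the 72 passed an adjusted p of 0.05, against 0.0268% of all probes. At an unadjusted p under 0.05 stood 3 higher and 2 lower genes, where 4.68% and 6.59% of all probes did. The groups did not overlap for 7 higher and 8 lower genes, against 7.59% and 11.8% of all probes.

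The other ligands and receptor of the family gave 5 tested genes, 2 positive and 3 negative. Egf, the ligand that the kidney itself makes in quantity, had log2 levels of 5.20, 5.25 and 4.57 in dibromoethane rats, against 5.11, 5.08 and 5.03 in corn oil rats. One animal, dibromoethane replicate 3, lay below the rest, and the groups differed by -0.07 (SE 0.19, limma adjusted p = 0.910), with 0.03 from the other Egf probe. That animal also had the lowest summed level of 4 thick ascending limb markers, 136.6, where the other treated animals had 231.0 and 352.2 and the vehicle animals 316.4 to 342.0. This sum follows its brightest gene, Umod, and Kcnj1 was not lowest in that animal. Of the 4 only Cldn16 did not overlap, lower at -0.72 (SE 0.20, limma adjusted p = 0.355), against 11.8% of all probes tested. The part of that segment in the Egf value was not tested. Erbb4, the receptor of neuregulins, Hbegf and Btc, stood at -4.42, -3.35 and -4.34 in dibromoethane rats, against -3.69, -3.46 and -3.13 in corn oil rats. Its difference of -0.61 (SE 0.31, limma adjusted p = 0.509) was 0.23 within slide 1 and -1.29 within slide 2. Nrg2, a neuregulin, had a value of -0.10 (SE 0.16).

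Genes of ligand shedding gave 8 tested members, 3 positive and 5 negative, with log2 fold changes from -0.17 to 0.18 and a median of -0.01. Adam17, the protease that frees Hbegf, Areg and Tgfa, stood at -1.59, -1.41 and -1.74 in dibromoethane rats, against -1.52, -1.62 and -1.59 in corn oil rats, and its interval of -0.25 to 0.25 bounds the difference. Rhbdf1, a rhomboid-like protein that helps ADAM17 to mature, had a value of 0.18 (SE 0.10), with 0.71 (SE 0.42) from its other probe, and the groups overlapped on both. Adam10, the protease that frees betacellulin, had -0.17 (SE 0.10), with -0.08 and 0.04 from its other probes, so its probes did not share a sign. Genes of signal transduction gave 26 tested members, 11 positive and 15 negative, with a median of -0.05. The kinase gene Src had the smallest p among them, with a value of 0.21 (SE 0.09, limma adjusted p = 0.453), and 0.23 from its other probe. Pik3cb, a catalytic subunit of PI3 kinase, had -0.26 (SE 0.13), with 0.02 from its other probe.

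Inhibitors of the receptors and of the ERK pathway were negative for 14 and positive for 2 of 16 tested members, where 46.4% of all genes at 1 probe per gene were positive. Their median was -0.05 on the log2 scale, against -0.02 over all genes. The groups did not overlap for 3 lower and 1 higher, against 11.8% and 7.59% of all probes tested. Errfi1, also called MIG6, which binds and blocks the EGFR kinase, had log2 levels of 4.82, 5.89 and 5.20 in dibromoethane rats, against 6.04, 6.91 and 5.23 in corn oil rats. The vehicle animals spread over more than 1 log2 unit, and the difference of -0.76 (SE 0.47, limma adjusted p = 0.571) did not pass. Dusp6, the phosphatase that switches off ERK, stood at 2.95, 3.54 and 3.56 in dibromoethane rats, against 3.63, 4.12 and 3.79 in corn oil rats. All treated animals lay below all vehicle animals, with a difference of -0.49 (SE 0.21, limma adjusted p = 0.451), -0.33 within slide 1 and -0.84 within slide 2. Cblb, a ubiquitin ligase that can mark the receptor for degradation, stood at -0.19, -0.24 and -0.21 in dibromoethane rats, against 0.04, -0.02 and 0.03 in corn oil rats. Its difference was -0.23 (SE 0.06, limma adjusted p = 0.357), again without overlap and of the same sign within both slides.

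Response genes, which EGF receptor signals are known to raise in cell culture, were positive for 8 and negative for 9 of 17 tested members, with a median of -0.07. The groups did not overlap for 4 higher and 3 lower, against 7.59% and 11.8% of all probes tested. Phlda1, an early response gene, stood at 0.04, 0.21 and 0.16 in dibromoethane rats, against -0.34, -0.37 and -0.41 in corn oil rats. This difference of 0.51 (SE 0.08, limma adjusted p = 0.209), with 0.40 from the other probe, was 0.56 within slide 1 and 0.45 within slide 2. Myc, the growth regulator, stood lower without overlap, at -0.95, -1.08 and -0.77 in dibromoethane rats and -0.57, -0.59 and -0.66 in corn oil rats. The log2 fold change of Myc was -0.33 (SE 0.10, limma adjusted p = 0.361).

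Egr1 and Ccnd1, the other response genes under an unadjusted p of 0.05, are named here because of their values, which were seen first. The transcription factor gene Egr1 had levels of -3.37, -2.22 and -2.80 in dibromoethane rats, against -3.55, -3.77 and -3.48 in corn oil rats. Its difference of 0.80 (SE 0.29, limma adjusted p = 0.402) was 1.44 within slide 1 and 0.11 within slide 2. Ccnd1, which encodes cyclin D1, had levels of 3.17, 3.33 and 3.95 in dibromoethane rats, against 2.90, 2.79 and 2.86 in corn oil rats. Its difference of 0.63 (SE 0.20, limma adjusted p = 0.375) came with 0.52 and 0.58 from its other probes, all 3 without overlap. None of these genes passed in limma.

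The tissue is described by marker genes, which are summed over the tested members per array. All 4 inner medulla markers were tested, with summed levels of 4.7 to 6.1 in dibromoethane rats and 5.9 to 6.0 in corn oil rats. Within that list, Akr1b1 lay higher without overlap at 0.50 and Slc5a3 lower at -0.33, against 7.59% and 11.8% of all probes tested. Whether the cortex samples held some medulla was not tested. All 7 proximal tubule markers were well above background on every array, with summed levels of 1183 to 1218 in dibromoethane rats and 1267 to 1340 in corn oil rats. Markers of the collecting duct summed to 169.5 to 216.6 in dibromoethane rats and 183.6 to 211.6 in corn oil rats. Of these 6 markers only Scnn1g did not overlap, higher at 0.33. Podocyte markers summed to 26.6 to 37.6 in dibromoethane rats and 30.5 to 31.3 in corn oil rats, and endothelial markers to 34.3 to 36.8 in dibromoethane rats and 32.8 to 36.2 in corn oil rats. Erythroid markers summed to 138.7 to 166.9 in dibromoethane rats and 191.1 to 222.1 in corn oil rats. Only the proximal tubule and erythroid sums of these lists did not overlap between the groups, and none of their members passed in limma. Lower without overlap were 3 of 7 proximal tubule and 2 of 3 erythroid markers, against 11.8% of all probes tested. A sum follows its brightest genes, which in the erythroid list was Hbb, with a log2 fold change of -0.43. Slc4a1 of that list overlapped at 0.02, and Slc5a2 of the proximal tubule list overlapped at -0.0003.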

How the data were processed

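Per the labels' protocols, Cy3-labelled RNA of each animal was put on 1 Agilent array. Intensity per spot in the deposited scanner tables was made with Feature Extraction 10.7.1.1 and background-subtracted, per the file headers. Their grid names build rn4. The deposited series table holds the same intensity divided by each array's 75th percentile (r of 0.999999 or higher on the log2 scale, no centring of genes, column medians 0.110, 0.105 and 0.107 for dibromoethane replicates 1 to 3 and 0.101, 0.102 and 0.112 for control replicates 1 to 3). Version 10.7 is named in the submitters' processing notes.

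Of 62976 spots, 1439 control spots and 84 ERCC probes were left out, and 1 to 11 outlier spots per array were set to missing. Probe accessions, less their versions, were looked up in a RefSeq gene table of GRCr8, which served for names and gene order. This named 28206 probes (45.9%), with 33247 unnamed here. Processed signals were put on the log2 scale, less each array's 75th percentile. Each probe had its own limma fit (lmFit, then eBayes; limma 3.58.1 under R 4.3.3) with 4 residual degrees of freedom and a prior of 2.13, two-sided and without covariates, with Benjamini-Hochberg adjustment over all 37274 probes, and the fit was tested on simulated data. The ligands, receptors and gene lists were chosen with earlier results of these data known, and no list was tested as a set.

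From each list the text names members that passed, failing that the 2 of lowest p, and in any case Egf, Erbb4, Adam17 and Errfi1. Trpm6, planned as well, is unnamed on the array here. Slide 1 held dibromoethane replicate 2 and control replicates 1 and 2, slide 2 dibromoethane replicate 1 and control replicate 3, and slide 3 dibromoethane replicate 3. Scan day 1 covered slides 1 and 3. The labels describe 3 animals per group. Alternatives were other normalizations, background correction, filters, probe summaries, slide, scan day and replicate blocks, variance models, the series table and leaving out each array. Normexp used the median spot signal, since the tables hold no mean signal.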

Additional observations from a re-analysis of the deposited data

How the results depend on the processing

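Under the alternatives 0 ligand or receptor probes passed in any of the 22 fits. Their log2 fold changes kept their direction in 276 of 299 values, and 8 probes, those of Hbegf, Areg, Btc and Erbb2, reversed under none. Part of this count was fixed in advance, since the scan day block, the replicate block and the trend model leave the fold changes unchanged. The series table holds the same intensity, and only slides with both groups repeats the fixed slide block. The count is therefore a description and not a measure of robustness. Tgfa A_64_P122865 was -0.069 with slide as a fixed block and on only slides with both groups, -0.015 within slide 1, -0.14 within slide 2 and -0.0030 to 0.30 when 1 array was left out. Egfr A_44_P346408 was 0.056 with that block and on those slides, 0.26 within slide 2 and -0.31 to 0.032 with 1 array left out. Egfr A_44_P194138 was 0.076, 0.31 and -0.27 to 0.042 under the same settings. Erbb3 A_64_P080643 was -0.014 with median centring and with slide as a random block, -0.093 with the fixed block and on only slides with both groups, -0.14 and -0.027 within slides 1 and 2, and -0.086 to 0.10 with 1 array left out. Erbb3 A_44_P557246 ran from -0.032 to 0.23 with 1 array left out. Medians of all log2 fold changes stayed between -0.05 and -0.00 under every alternative.

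Over all probes, 10 passed, 8 raised and 2 lowered. Normexp gave 6 and 0 lowered, no filter 1 in all, 1 raised and 0 lowered, and trend with robust 20 and 9 lowered. Quantile normalization lowered 4, slide as a random block 4 and median centring 1. Scan day as a block gave 2, 2 raised and 0 lowered. Slide as a fixed block, only slides with both groups and scan day 1 alone gave 0, 0 raised and 0 lowered, with 4396, 4396 and 3182 probes at an unadjusted p under 0.05 in limma and 2 residual degrees of freedom. Leaving out 1 array gave 1 to 13, 1 to 11 raised and 0 to 2 lowered. Dropping a dibromoethane array left 1, 3 and 6 for replicates 1 to 3, and dropping a control array left 4, 1 and 13. Fewer arrays, degrees of freedom or tested probes are part of these settings, and otherwise the cause was not tested.

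Both groups carry replicate numbers 1 to 3. Deviations of same-numbered arrays from their group means correlated at -0.20, 0.24 and 0.13, so the numbers were not taken as pairs, and replicate 1 did not correlate best with its own number. With the replicate block, 0 passed, 0 raised and 0 lowered in limma (4455 at an unadjusted p under 0.05, 2 residual degrees of freedom). Signal limits Ereg, Tgfa A_44_P310168 and Erbb2 A_64_P038812, which were not tested.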
